A study of Drosophila melanogaster with 2 samples.

Results

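The genes of the mitochondrial ribosome that carry an mRpL or mRpS name were examined for peaks of Brinker, a repressor that keeps targets of the BMP ligand Dpp off where Dpp is low. Members were all protein-coding nuclear genes of the dm6 annotation whose symbol starts with mRpL (large subunit) or mRpS (small subunit). The rule found 73 genes, 47 of the large and 26 of the small subunit, among 13968 nuclear protein-coding genes. The mitochondrial ribosomal proteins bonsai and tko carry other names and are described apart.

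Binding was mapped by chromatin immunoprecipitation and sequencing in whole Drosophila melanogaster larvae at the third instar, in its wandering stage, males and females pooled, of unknown age. The animals belonged to 1 transgenic line, brk-GFP, which stably expresses a fusion of Brinker with enhanced green fluorescent protein (brk-eGFP), the tag at the C-terminal end, and an anti-GFP antibody was used. There was 1 group with 2 biological replicates, numbered 3 and 4, and chromatin was sonicated to fragments of 200 to 800 bp. No untagged or mock-precipitated group was analysed here, every animal carried the fusion, and chromatin from all tissues was mixed, so a peak cannot be assigned to a tissue.

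The mitochondrial ribosome translates the few proteins encoded by mitochondrial DNA, which are subunits of the respiratory chain and of ATP synthase. Its RNAs are mitochondrial, whereas its proteins are encoded in the nucleus, made in the cytoplasm and imported. Brinker is known in Drosophila for repressing Dpp targets and growth in the wing disc, by binding short GC-rich sites.

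A gene was counted as bound when the summit of a peak of the replicate-filtered list lay in its body or within 5 kb of it. That list holds the 3413 peaks kept by a filter on the irreproducible discovery rate (IDR), meant to retain peaks ranked alike in both replicates, and 3380 of them are nuclear. A promoter summit lies within 500 bp of a transcription start site (TSS) of the member. Signal here means the height the authors deposited for a peak, on an unstated scale, and it ran from 82.6 to 1788 over the nuclear IDR peaks with a median of 119. Peak lists give no read depth, so the counting error behind a signal is unknown, and the difference between the replicates is the only error available.

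The stretches upstream of 5 members show the DNA on which promoter summits lay. They were read from the Release 6 genome (dm6 coordinates, counted from 1), each ends 1 base before the TSS its summit was measured from and runs back over at most 150 bases without reaching an annotated exon, and each is written 5′ to 3′ on the strand of the member. Capitals mark a Brinker site (GGCGNN, where each N is C or T) or a TATA box (TATAAA), on either strand. The summit fell on base 14 of the mRpL23 stretch, base 47 of mRpL24, base 79 of mRpS6, base 22 of mRpS7 and base 74, for the nearer of 2 summits, of mRpL17.
mRpL23, chr3L:2373502-2373596, minus strand: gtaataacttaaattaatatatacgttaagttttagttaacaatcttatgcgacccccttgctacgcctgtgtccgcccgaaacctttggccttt
mRpL24, chr2L:4945362-4945511, minus strand: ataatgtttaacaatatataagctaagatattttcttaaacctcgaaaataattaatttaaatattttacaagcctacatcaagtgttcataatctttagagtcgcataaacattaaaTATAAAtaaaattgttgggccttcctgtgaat
mRpS6, chr3L:4364400-4364549, plus strand: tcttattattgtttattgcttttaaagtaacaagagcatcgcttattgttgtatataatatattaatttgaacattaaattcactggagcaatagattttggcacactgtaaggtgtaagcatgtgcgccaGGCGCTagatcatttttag
mRpS7, chr2L:10386512-10386661, plus strand: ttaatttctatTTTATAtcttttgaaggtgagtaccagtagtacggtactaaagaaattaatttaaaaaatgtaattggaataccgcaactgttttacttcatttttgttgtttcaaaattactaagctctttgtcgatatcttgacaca
mRpL17, chr3L:264629-264778, plus strand: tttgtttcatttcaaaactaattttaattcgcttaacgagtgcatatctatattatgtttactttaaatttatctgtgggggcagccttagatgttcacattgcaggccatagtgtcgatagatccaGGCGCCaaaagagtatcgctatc
The mRpL17 and mRpS6 stretches each hold 1 Brinker site, nearer to the start of the gene than to the summit. Both sites lie within 100 bp of the summit given, and with fragments of 200 to 800 bp this distance is not resolved. The mRpL23, mRpL24 and mRpS7 stretches hold none.

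The next stretches, of 26 bases, show an E-box (CAGCTG, in capitals) near the start of members, a sequence present in 40 of the 73 promoters. The first 6 belong to members with a promoter summit, and mRpL46, mRpS34, mRpL11 and mRpL35 have no summit within 5 kb and were shown for an E-box close to the start. The mRpL23 E-box lies by the most 5′ start of that gene, whereas its upstream stretch above ends at a later start.
mRpL23, chr3L:2373717-2373742, minus strand: ggttgacaatCAGCTGtttaaaacaa
mRpS21, chr3R:13381792-13381817, minus strand: tgatattcatCAGCTGtttagcagta
mRpL2, chr3L:11120847-11120872, plus strand: cgccgcgtaaCAGCTGttttcagccg
mRpL17, chr3L:264782-264807, plus strand: aaatggtcgcCAGCTGttcggcgaat
mRpS6, chr3L:4364554-4364579, plus strand: ttccttgcatCAGCTGttaacactat
mRpL24, chr2L:4945326-4945351, minus strand: cagttctcaaCAGCTGattgcaagcc
mRpL46, chr3L:1777427-1777452, plus strand: tgccgcaaatCAGCTGttccggctct
mRpS34, chr3L:16348066-16348091, plus strand: ccagccggcaCAGCTGttcgaccttc
mRpL11, chr3R:14511823-14511848, plus strand: gcaataccatCAGCTGttgctgcttc
mRpL35, chr3R:22023512-22023537, plus strand: gaatggcacaCAGCTGactgttacgc
In 8 of these 10 sites the E-box is followed by TT on the coding strand. mRpL24 and mRpL35 are the others. The 10 sites are chosen examples, and of all 73 members 22 (30.1%) had an E-box followed by TT on that strand within 50 bp of the start.

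Brinker peaks were found near a minority of the mitochondrial ribosomal protein genes. A summit lay within 5 kb of 21 of the 73 members (28.8%), against 3753 of all 13968 genes (26.9%), so the share of the members was near the background. A promoter summit was present for 11 members (15.1%), against 1458 of all genes (10.4%). Both counts come from 1 list made from both replicates, and no test was made of them.

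Members are short genes, with a median length of 909 bp against 2164 bp for all genes. Among the 11117 genes no longer than mRpS5, the second longest member at 6299 bp, 21.8% had a summit within 5 kb and 7.39% a promoter summit. Among the 12450 genes up to mRpS9, the longest at 13391 bp, the shares were 23.8% and 8.73%. These length limits were chosen after the lengths were seen.

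Both subunits had bound genes. Of the large subunit genes 13 of 47 (27.7%) were bound and 8 (17.0%) had a promoter summit. Of the small subunit genes 8 of 26 (30.8%) were bound and 3 (11.5%) had a promoter summit. By chromosome arm, summits lay within 5 kb of 4 of 12 members on 2L (33.3%; all genes there 28.9%), 5 of 12 on 2R (41.7%; 24.4%) and 6 of 17 on 3L (35.3%; 32.5%). They lay within 5 kb of 5 of 21 members on 3R (23.8%; all genes there 24.9%) and 1 of 11 on X (9.09%; 22.9%). Promoter summits were present for 2 of 12 members on 2L (16.7%; all genes there 11.3%), 3 of 12 on 2R (all genes 8.84%) and 5 of 17 on 3L (29.4%; 13.6%). On 3R 1 of 21 members had one (4.76%; all genes there 9.38%), and on X 0 of 11 did (all genes 8.52%). With 11 to 21 members on an arm, a few genes set these shares.

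**Figure D1:**
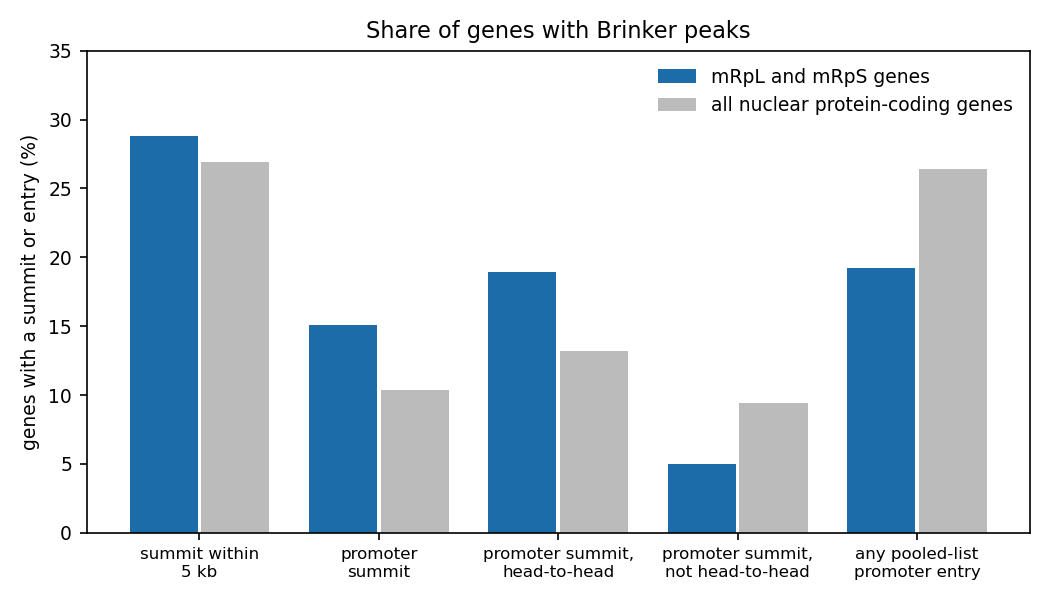
Share of genes, in percent, with a Brinker summit within 5 kb, with a promoter summit, with a promoter summit split by the presence of a head-to-head protein-coding neighbour, and with a promoter entry in the pooled list, for the 73 mRpL and mRpS genes (blue) and all 13968 nuclear protein-coding genes (grey). The pair for 5 kb is nearly level (28.8% and 26.9%), the members stand higher for promoter summits (15.1% and 10.4%), and they stand lower for pooled-list entries (19.2% and 26.4%).

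Of the large subunit genes, mRpL41 carried the strongest promoter peak. This gene encodes a protein of the mitochondrial ribosome that bacterial ribosomes lack. Its peak spanned chr2R:15217599-15217919 and had a signal of 776, rank 13 among the 3380 nuclear IDR peaks. The signal was 353 in replicate 3 and 420 in replicate 4, and the summit lay between genes, 139 bp upstream of the TSS. The only other gene starting within 500 bp of it was the noncoding RNA gene lncRNA:CR44463.

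The next peaks lay at mRpL23 and mRpL24, which encode counterparts of bacterial large subunit proteins. At mRpL23 (chr3L:2373461-2373755) the signal was 517, rank 50, with 255 in replicate 3 and 256 in replicate 4. The summit was in an intron of mRpL23, between its annotated starts and 82 bp upstream of the nearer one, and CG9004 also started within 500 bp. At mRpL24 (chr2L:4945330-4945619) the signal was 400, rank 99, with 217 in replicate 3 and 185 in replicate 4. Its summit lay 104 bp upstream of the TSS, between mRpL24 and betaggt-I, which encodes a subunit of an enzyme that attaches lipids to proteins.

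At mRpL20 and mRpL17, whose products also have bacterial counterparts, the summits were nearest the starts of other genes or shared with them. The mRpL20 promoter peak (chr3L:13018014-13018259) had a signal of 210, with 102 and 105 in replicates 3 and 4, and its summit lay 202 bp from the mRpL20 start and 197 bp from that of Icmt, a methyltransferase gene. mRpL17 had 2 overlapping peaks. The stronger (chr3L:264295-264710) had a signal of 149 and a summit 276 bp from the mRpL17 start, but 123 bp from that of Tudor-SN, a gene for a nuclease. The weaker (chr3L:264494-264909) had a signal of 89.5 and a summit 77 bp from mRpL17. Both overlapped the same replicate entries, with signals of 72.6 in replicate 3 and 88.3 in replicate 4, so they are not independent.

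The other large subunit promoter peaks were weaker. mRpL34 (chr2R:16098492-16098907) had a signal of 141, with 92.4 in replicate 3 and 55.2 in replicate 4, and a summit 248 bp from its start but 136 bp from that of Dg, the gene for dystroglycan. At mRpL2 (chr3L:11120247-11120662), which encodes a protein near the catalytic centre of the ribosome, the signal was 107, with 47.3 in replicate 3 and no overlapping entry in replicate 4. That summit lay in an intron of the forkhead gene FoxK, 44 bp from a FoxK start and 392 bp from the mRpL2 start, the farthest promoter summit of any member. mRpL53 (chr2R:13953920-13954335), another protein without a bacterial counterpart, had the lowest signal of the strongest promoter peaks per member, 98.4, with 46.8 and 45.2 in replicates 3 and 4. Its summit lay in an intron of AGO1, a gene of the microRNA pathway, and was 67 bp from the starts of both mRpL53 and CG33155.

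Of the small subunit genes, mRpS6 had the strongest promoter peak (chr3L:4364346-4364559), with a signal of 250 that was 94.8 in replicate 3 and 149 in replicate 4. Its summit lay 72 bp upstream of the start, between mRpS6 and Cip4. At mRpS21 (chr3R:13381785-13382200) the signal was 117, with 58.8 and 63.8 in replicates 3 and 4, and the summit was 184 bp from its start and 113 bp from that of Droj2, a gene for a DnaJ-like chaperone. At mRpS7 (chr2L:10386325-10386740), which encodes a protein of the head of the small subunit, the signal was 102, with 52.1 and 47.6 in replicates 3 and 4. That summit lay 129 bp from mRpS7, between it and Cdk1, a kinase gene of the cell cycle.

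Signals of the 2 replicates were close at most of these peaks. Over the 11 promoter peaks with an entry in both, of 12 peaks in all, the log2 ratio of replicate 3 to replicate 4 had a median of -0.05 and an SD of 0.36. It ran from -0.65 at mRpS6 to 0.74 at mRpL34, with 4 peaks higher in replicate 3 and 7 higher in replicate 4. Both mRpL17 peaks share the same replicate entries, higher in replicate 4, so the 11 ratios are not all independent. Over all nuclear IDR peaks the median was 0.03 and the SD 0.55. The spread depended on the entry rule. With replicate summits required within 100 bp, 10 member promoter peaks had both entries, with a median of 0.02 and an SD of 0.48. These ratios reached 1.02, with 5 peaks higher in each replicate. Over all nuclear IDR peaks that rule gave a median of 0.03 and an SD of 0.62. Since the IDR procedure is meant to keep peaks that rank alike in both replicates, this closeness is partly fixed by the list. The median signal of the member promoter summits was 145, against 126 for the 1375 summits in the promoter of any protein-coding gene, and 7 of the 12 reached the nuclear median.

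**Figure D2:**
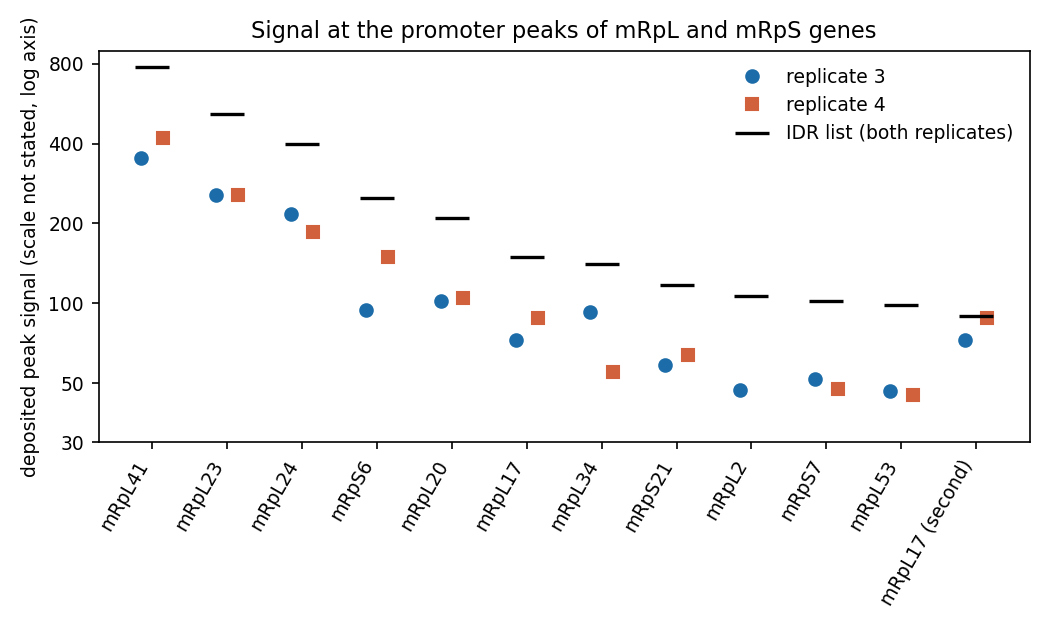
Deposited peak signal (log axis, scale not stated) at the 12 promoter peaks of 11 mRpL and mRpS genes, in replicate 3 (circles), replicate 4 (squares) and the IDR list made from both (bars). Signals in the IDR list fall from 776 at mRpL41 to 89.5 at the second mRpL17 peak, mRpL2 has no replicate 4 entry, and both mRpL17 peaks share the same replicate entries.

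All 12 promoter summits lay upstream of the nearest annotated start of the member, at a median of 134 bp and a range of 67 to 392 bp. The mRpL23 summit lay upstream of a later start only and inside the gene. Another gene started within 500 bp of every one of them. The start of the member was the nearest, ties included, in 7 of the 12 (58.3%), and mRpL17 supplied 2 of the 12. Over all protein-coding genes, the gene in question was the nearest in 81.6% of the 1680 pairs of a gene and a promoter summit. Another gene started within 500 bp of a start of 74.0% of members and 34.4% of all genes. The shares of 58.3% and 81.6% are therefore not like for like. Of the 12 summits, 9 fell between genes. The upstream side, the other start and the place between genes have no share over all promoter summits beside them here. They are therefore not shown to be particular to the members.

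Head-to-head arrangement was common among members. For 53 of the 73 (72.6%) a protein-coding gene on the other strand starts within 500 bp, against 27.8% of all genes. A promoter summit was present at 10 of these 53 (18.9%) and at 1 of the other 20, which was mRpL41. Over all genes the shares were 13.2% of 3878 with such a neighbour and 9.40% of 10090 without. With fragments of 200 to 800 bp, binding at one start of such a pair and at the other cannot be told apart.

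For the 10 bound members without a promoter summit, the counted summits lay at or in other genes. The strongest signal was at mRpL33 (449; 218 and 234 in replicates 3 and 4), in an intron of norpA, the phospholipase C gene of phototransduction, 2773 bp from mRpL33. A signal of 400 was counted for mRpL19, with 176 and 223 in replicates 3 and 4. Its summit lay 170 bp from tRNA:Tyr-GTA-1-8 and 4765 bp from mRpL19. For mRpL4 the signal was 349, with 177 and 180 in the replicates, in an intron of cact, the gene for the inhibitor of the NF-kappaB factor Dorsal. These 3 exceeded 8 of the 11 strongest promoter peaks per member, yet none lay within 500 bp of a member's start.

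The other 7 had signals from 82.9 to 206. The summit of 206 counted for mRpL47 lay 129 bp from the start of rump, an RNA-binding protein gene, and a second of 144 lay between Rlb1 and Ras85D, the Ras GTPase gene, with no replicate 4 entry. The summit counted for mRpS16 (181) lay in an intron of cg and differed most between the replicates, at 123 in replicate 3 and 27.2 in replicate 4. Those counted for mRpS23 (156), mRpS28 (149) and mRpS31 (111) were nearest the starts of CG33307, GEFmeso and hzg. The mRpS28 peak of 149 had no replicate 4 entry, and a weaker one of 87.8 had 44.4 in replicate 3 and 41.7 in replicate 4. The summit for mRpS9 (125; 35.8 and 86.4 in replicates 3 and 4) lay 71 bp from the start of ArgRS-m, which encodes the mitochondrial arginyl-tRNA synthetase. The weakest, for mRpL55, had a signal of 82.9, lay 19 bp from the start of the kinase gene cdi and was 616 bp from the mRpL55 start, just outside the promoter window.

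In all, 38 summits were counted for the 21 bound members, and mRpL20 had the most, with 4. Of the 26 that were not promoter summits, 17 lay within 500 bp of the start of another gene and 9 of no gene, and none lay inside the member. For 14 of the 21 bound members, every counted summit was nearest to the start of another gene. The 7 remaining members, mRpL41, mRpL23, mRpL24, mRpS6, mRpL17, mRpS7 and mRpL53, are those with a summit nearest their own start. Over all genes, 1747 of the 3753 bound genes had a summit nearest their own start, so many others lacked one too. The places of the 26 summits outside member promoters have no share over all genes beside them here. They are not shown to be particular to the members.

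**Figure D3:**
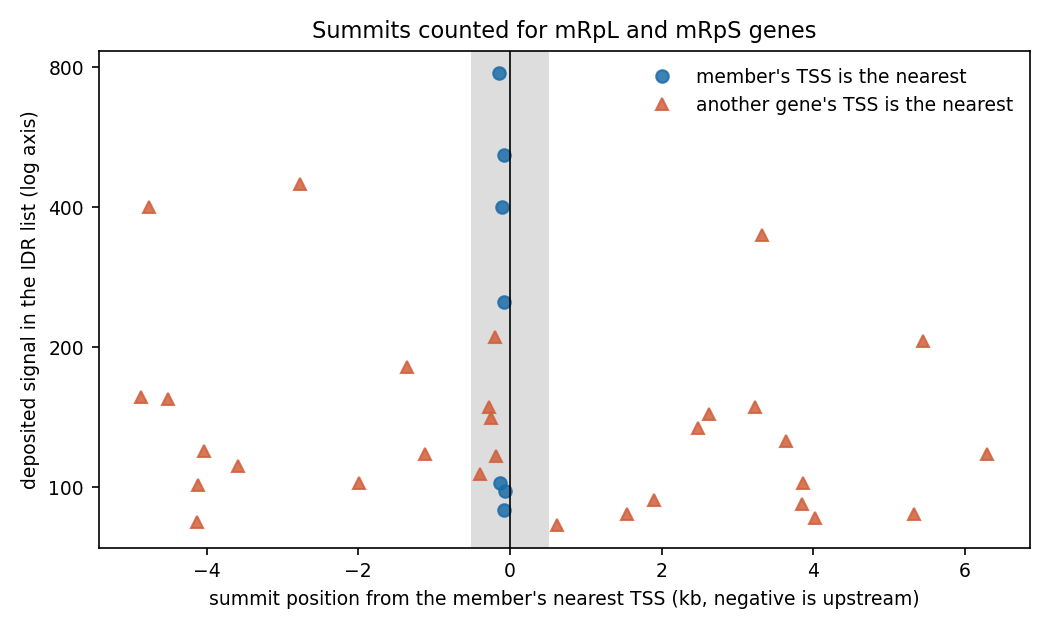
Summits counted for mRpL and mRpS genes by position from the nearest TSS of the member (kb, negative is upstream) and signal in the IDR list (log axis), with the promoter window of 500 bp shaded. Circles mark summits nearest the TSS of the member and triangles those nearest another gene's, and all 12 in the shaded window lie upstream. The 1 summit counted for mRpS9, 15693 bp from its TSS and 2303 bp from the gene, is not drawn.

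No IDR summit lay within 5 kb of 52 of the 73 members, nor of 10215 of all 13968 genes, so the share without one was near the background. The pooled list, called on both replicates together, holds 29999 peaks and background entries, and 14 members (19.2%) had an entry with its summit in the promoter, against 26.4% of all genes. Of the 14, 11 (78.6%) were in the IDR list, whereas 39.5% of all genes with a pooled promoter entry were. The 3 others were mRpS5 (63.9), mRpL13 (37.7) and mRpL55 (22.7), all under the lowest nuclear IDR signal of 82.6. In the separate lists, 22 members had a promoter entry in replicate 3 (30.1%; all genes 32.1%) and 14 in replicate 4 (19.2%; all genes 26.4%).

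Sequence features of the promoters were counted in the 300 bp from 250 bp before to 50 bp after the most 5′ start. A Brinker site was present in 18 of 73 members (24.7%) and in 26.4% of all genes. It was present in 6 of the 11 members with a promoter summit and in 12 of the 62 without, whereas 27.6% of all genes with a promoter summit had one. Within 100 bp of the summit, a site was present at 2 of the 12 promoter summits (16.7%), against 14.3% of the 3380 nuclear IDR summits. Of those 3380, 1375 lay in the promoter of any protein-coding gene, so the sets compared are unlike. All motifs were searched on both strands, and a match is a run of letters, not a measured site.

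The E-box CAGCTG was, of the 7 motifs searched, the one whose share differed most from the background. It was present in 40 of 73 member promoters (54.8%) and in 17.6% of all promoters. By subunit, 27 of 47 large and 13 of 26 small subunit genes had it. It was present in 8 of the 11 members with a promoter summit (72.7%) and in 32 of the 62 without (51.6%), and in 21.5% of all genes with a promoter summit. Within 100 bp of the summit it was present at 4 of the 12 promoter summits (33.3%), against 8.20% of the nuclear IDR summits. The latter include summits outside promoters, and E-boxes were more frequent near starts over all genes too, so these shares are not like for like. Of all 3878 head-to-head genes 970 had it, and of the 53 members among them 29 (54.7%).

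The E-boxes lay at the start of transcription. Of 45 matches in member promoters, 36 were within 50 bp of the start, at a median position of 2 bp after it. This narrower window was chosen after the positions were seen. It held an E-box in 35 members (47.9%), against 9.29% of all genes. The longer CAGCTGTT, which contains the E-box and was also chosen after the data were seen, was found there on the coding strand in 22 members (30.1%) and on the other strand in 8. Over all genes the shares were 2.81% and 2.55%.

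**Figure D4:**
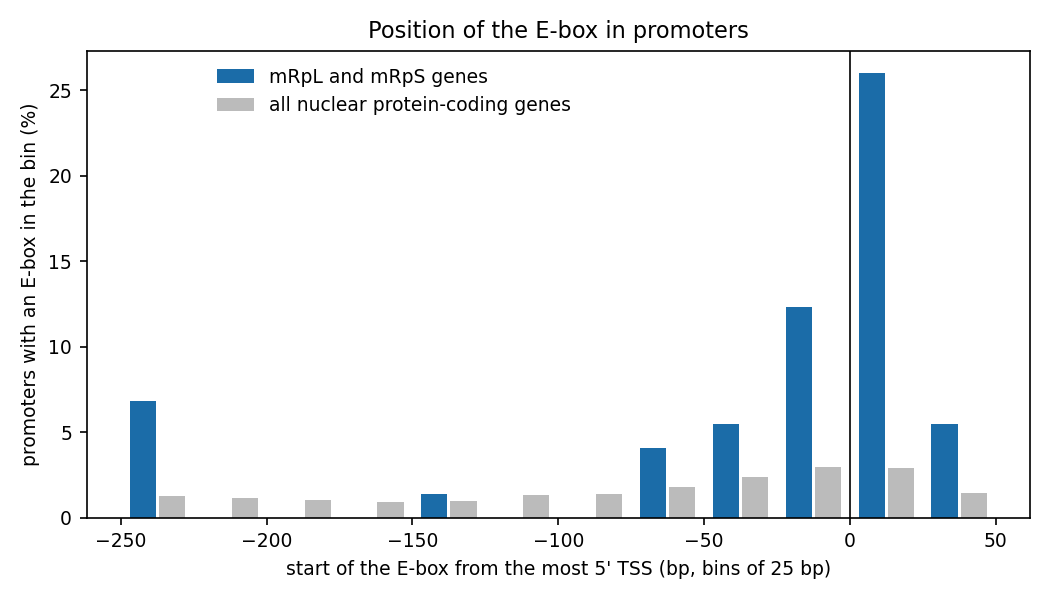
Share of promoters, in percent, with an E-box starting in each 25 bp bin from 250 bp before to 50 bp after the most 5′ TSS, for the 73 mRpL and mRpS genes (blue) and all 13968 nuclear protein-coding genes (grey). The members are highest in the first bin after the start, at 26.0% against 2.94% of all genes.

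Other motifs differed less. The DREF site (ATCGAT), bound in Drosophila by a factor of genes for growth and replication, was in 37.0% of member promoters and 23.3% of all. The core promoter element motif 1 (GGTCACACT) was in 8 member promoters and 6.04% of all, and the GAGA element (GAGAG) in 16.4% and 29.7%. The TATA box was in 46.6% and 45.8%. The NRF-1 site (GCGCATGC), bound in mammals by a regulator of mitochondrial genes, was in 1 member promoter (1.37%) and 1.05% of all. Mean GC content was 36.0% (SD 6.20, n = 73) in members and 39.1% (SD 7.74, n = 13968) in all promoters, and the part of base composition in these shares was not tested.

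Other genes of mitochondrial gene expression were counted by the same rules. Of bonsai and tko, the mitochondrial ribosomal proteins under other names, neither was bound, and both had an E-box within 50 bp of the start. Of 8 translation factor genes 2 were bound and 1 had a promoter summit (mIF2, 90.6), and 5 had an E-box in that window. Of 16 mitochondrial tRNA synthetase genes 3 were bound and 1 had a promoter summit (ArgRS-m, 125), and 8 had the E-box. Of 13 genes of mitochondrial DNA and RNA maintenance 4 were bound and 2 had a promoter summit, mtSSB (217) and mTerf3 (99.9), and 5 had the E-box.

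Cytoplasmic ribosomal protein genes, which encode proteins of the ribosome outside mitochondria, had a larger share with peaks and a smaller share with E-boxes than the members. Of 92, 32 (34.8%) were bound and 19 (20.7%) had a promoter summit, with the strongest at RpL7 (235), RpS2 (210) and RpL27 (195), and 7 (7.61%) had an E-box within 50 bp of the start. Of 88 respiratory chain and ATP synthase genes, 30 (34.1%) were bound and 13 (14.8%) had a promoter summit. The strongest were at SdhC (180), COX8 (162) and COX7B (152). The SdhC and COX8 summits were nearest the starts of other genes, Tctp (137 bp) and VhaM9.7-b (192 bp). Of the 88, 17 (19.3%) had the E-box. The promoter peaks of mRpL41 (776), mRpL23 (517), mRpL24 (400) and mRpS6 (250) exceeded the strongest of both lists.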

How the data were processed

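Peaks were analysed from the dm6 lists only: 1 per replicate (peaks and background), 1 pooled and 1 kept by IDR, per the labels and the deposited notes. No source used here names the aligner, the caller, their versions or the threshold of the IDR filter. The signal is the authors' deposited value on an unstated scale. The deposited −log10 q-value had a ceiling of 3.43, reached by 1351 IDR peaks, and was not used for ranking. The summit equals the midpoint, within 1 bp, in 97.9% of pooled peaks, which limits positions.

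Genes came from Ensembl release 115 (BDGP 6.54) and sequence from the Release 6 RefSeq genome. Replicate values are, unless stated otherwise, those of the strongest entry overlapping an IDR peak by at least 1 bp. Analyses used Python 3.11.15 with numpy 2.4.6 and matplotlib 3.10.9 and were tested on simulated peaks. With 1 group, no test between conditions was possible, and shares stand beside those of all genes. Members and lists were chosen with earlier results of these data known. Every member with a promoter summit was named, and every other bound member with the gene nearest its summit; of other lists, up to 3 genes were named. The names mEFG2, mtRF1, mtRNApol, tam and Twinkle found no match in the annotation and were left out.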

Additional observations from a re-analysis of the deposited data

How the results depend on the processing

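Giving each summit only to the gene with the nearest TSS left 7 members with a summit within 5 kb (9.59%; all genes 12.5%) and 7 with a promoter summit (9.59%; all genes 8.62%). A window of 1 kb left 12 (16.4%; all genes 16.7%), and the gene body alone left 1, mRpL23 (1.37%; all genes 8.18%). With only IDR peaks at or above the median signal, 7 members had a promoter summit (9.59%; all genes 6.34%). With the strongest peaks of 1 replicate in place of the IDR list, 19 to 25 members had a summit within 5 kb and 12 to 14 a promoter summit. In replicate 3 alone 25 (34.2%; all genes 31.7%) and 14 (19.2%; all genes 12.7%) had one. In replicate 4 alone 19 (26.0%; all genes 26.8%) and 12 (16.4%; all genes 9.96%) had one, so for 5 kb the order of members and all genes turned. Of the 11 members with a promoter summit, 9 kept one in replicate 3 alone and 10 in replicate 4 alone. In the pooled list, which holds background entries, the counts were 28 (38.4%; all genes 57.2%) and 14 (19.2%; all genes 26.4%), so members stood below all genes in both. The other windows gave counts within 1.5 times the first. The cause was not tested. No paired analysis was possible because there is 1 group. Depth is unknown, so an unlisted peak is not shown to be absent.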

Other observations

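At mRpS18A, both replicate lists held a promoter entry, with signals of 48.9 and 51.2 and summits 54 and 42 bp from the start, yet the pooled list held none there. Over the genome, of the 2221 nuclear peaks among the strongest of replicate 3 that overlap one among the strongest of replicate 4, 28 (1.26%) overlapped no pooled entry. The replicate 3 entry at mRpS18A was not among those strongest peaks, so this share does not cover it. Of the 73 members it was the only one with a promoter entry in both replicate lists and no pooled entry.

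Promoter entries were also seen in 1 replicate alone. With as many of the strongest peaks as the IDR list holds, mRpL32, mRpL37, mRpL47, mRpS16 and mRpS2 had a promoter summit in replicate 3 but none in the IDR list. In replicate 4, mRpL4 and mRpS18A had one but none in the IDR list, and mRpS18A also had the replicate 3 entry described above. The share of all genes that gained a promoter summit in this way is not given here.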
